A study of Homo sapiens with 6 samples.

Results

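The 10 genes described here encode proteins of the U4/U6.U5 tri-snRNP, namely PRPF3, PRPF4, PRPF31, PRPF6, PRPF8, SNRNP200, SNRNP40, EFTUD2, DDX23 and TXNL4A. They were chosen by their place in this particle, with earlier results of these data known. All 10 were found among the 19974 protein-coding genes of the RefSeq table (GRCh38.p14) on the autosomes and X. A peak was assigned to a gene when it met the RefSeq span of the gene or the 5 kb on either side. Chromatin came from IMR90 cells, which are human embryonic lung fibroblasts. It was profiled by ChIPmentation, in which a transposase cleaves and tags antibody-bound chromatin on the beads. SON, a scaffold protein of nuclear speckles, was mapped in cells left untreated and in cells given ICM for 3 or 6 days, a treatment whose name the labels do not spell out. These cells were fixed with 1% formaldehyde for 10 minutes. HMGB2, a chromatin protein of the high mobility group, was profiled in untreated cells fixed with 1.5 mM EGS for 20 minutes and then with formaldehyde, so the target and the fixation cannot be told apart in any contrast of SON with HMGB2. Each of the 4 groups is 1 peak list of 1 cell line. The input of HMGB2 and a DSG sample of HMGB2 were not used here. No difference between groups had a replicate check, and none was tested. The lists hold no reads, so the depth is unknown, and a peak missing from a list is a missing call, not a measured absence. The SON lists hold 22362 peaks (untreated), 11158 (3 days) and 5583 (6 days), and the HMGB2 list holds 6013. Peak strength is comparable only within a list, so a lower −log10 p in a later list is not read as weaker binding. Peak lists give no expression, so the fibroblast label was not checked against markers.

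The tri-snRNP joins the assembling spliceosome as a preformed unit that carries U4 and U6 RNA, paired with each other, together with the U5 particle. A helicase then unwinds U4 from U6, and U6 goes on to form the catalytic centre next to U5. Nuclear speckles store splicing factors, snRNPs among them, and genes near speckles are in general actively transcribed. The series concerns SON, HMGB2 and CTCF in genome folding and in the splicing of senescent cells, which makes the genes of the splicing machinery themselves a natural place to look at the peaks.

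Most peaks of these genes covered the transcription start, or for PRPF3 the lower end of the span. The sequence just before the start is printed for 4 genes. DDX23 had the strongest untreated SON peak of the 10 genes, EFTUD2 the strongest HMGB2 peak, PRPF6 the only match to a CTCF form, and SNRNP200 had no peak in any list. Each is given as the 250 bases before the RefSeq start, 5′ to 3′ on the strand of the gene (RefSeq, GRCh38.p14). The coordinates are chr12:48852164-48852413 on the minus strand for DDX23, chr17:44899446-44899695 on the minus strand for EFTUD2, chr20:63980882-63981131 on the plus strand for PRPF6 and chr2:96305547-96305796 on the minus strand for SNRNP200. Capitals mark every match, on either strand, to the motifs listed after them.
DDX23: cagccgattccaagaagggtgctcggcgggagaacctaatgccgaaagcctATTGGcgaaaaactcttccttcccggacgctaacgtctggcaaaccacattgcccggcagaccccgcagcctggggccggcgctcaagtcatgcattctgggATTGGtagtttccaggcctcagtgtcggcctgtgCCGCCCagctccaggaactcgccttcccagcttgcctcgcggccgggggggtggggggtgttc
EFTUD2: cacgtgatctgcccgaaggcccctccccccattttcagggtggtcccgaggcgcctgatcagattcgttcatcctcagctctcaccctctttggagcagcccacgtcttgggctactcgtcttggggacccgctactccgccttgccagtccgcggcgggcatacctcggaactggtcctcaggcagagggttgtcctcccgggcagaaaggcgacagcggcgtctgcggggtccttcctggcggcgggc
PRPF6: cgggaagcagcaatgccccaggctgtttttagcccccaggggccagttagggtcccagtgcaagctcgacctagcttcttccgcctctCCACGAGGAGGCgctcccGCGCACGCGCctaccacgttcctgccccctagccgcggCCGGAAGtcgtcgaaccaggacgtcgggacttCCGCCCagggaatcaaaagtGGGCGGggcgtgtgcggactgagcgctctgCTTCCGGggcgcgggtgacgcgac
SNRNP200: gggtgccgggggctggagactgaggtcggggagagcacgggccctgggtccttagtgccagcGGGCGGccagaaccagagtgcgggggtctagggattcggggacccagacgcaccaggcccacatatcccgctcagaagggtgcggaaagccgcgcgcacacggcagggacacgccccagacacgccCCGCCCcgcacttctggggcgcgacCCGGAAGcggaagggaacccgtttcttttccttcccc

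The motifs searched were CCGGAAG (ETS factors), GGGCGG (SP factors), CCAAT (NFY), a form each for NRF1 and YY1, and 2 forms of the CTCF core. Capitals stand for CCAAT read on the other strand in DDX23 (2 matches, ATTGG as printed) and for GGGCGG in DDX23, PRPF6 and SNRNP200, with CCGCCC where it lies on the other strand. CCGGAAG is marked in SNRNP200 and, once on each strand, in PRPF6. In PRPF6 capitals further mark the NRF1 form and 1 CTCF form, CCACGAGGAGGC as printed, whose first base is 162 bases before the start. No 2 of these matches overlapped, and the printed stretch of EFTUD2 had none, while the stretch before its second start held 1 GGGCGG. The DDX23 stretch lies inside the span of an lncRNA gene, LOC105369755, and the other 3 lie in no other gene of the table. The promoter table held 11 entries for 9 of the 10 genes, with 2 starts each for EFTUD2 and TXNL4A. GGGCGG was found in 7 of the 11 against 53.7% of 22132 promoters of protein-coding genes, CCAAT in 4 against 32.7%, CCGGAAG in 2 against 10.7%, the NRF1 form in 1 against 6.58%, the YY1 form in none against 0.262%, and the CTCF forms in none and 1 against 0.366% and 0.529%. None of the common motifs was thus shared by all the genes. Median GC content was 66% over the 11 entries and 62% over all promoters, and the median number of CG dinucleotides was 22 against 16. A match describes letters, not binding.

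In untreated cells 9 of the 10 genes carried a SON peak (90%, 95% exact binomial interval 55.5 to 99.7%), against 57.1% of all protein-coding genes. After 3 days of ICM 8 carried one (80%, 44.4 to 97.5%), against 41% of all genes, and after 6 days 4 did (40%, 12.2 to 73.8%), against 21.5%. HMGB2 peaks were found at 5 (50%, 18.7 to 81.3%), against 23.3%. The intervals cover counting error over genes only. The 10 genes are not replicates of a condition, so no interval is read as a test against the background. In untreated SON, at 6 days and for HMGB2 the background share lies inside the interval. At 3 days the background share (41%) lies below the lower end (44.4%). These positions are description only, and no conclusion is drawn from them. The genes had a median length of 33.0 kb, against 24.2 kb for all genes, and a longer gene offers more room for a peak. Whether length bears on these shares was not tested. Counts were also taken within 1 kb of each listed start, a width that does not grow with the gene. SON peaks stood there at 9 of the 10 genes in the untreated list (40.1% of all genes). At PRPF3 and TXNL4A that untreated peak had the largest global IDR of the list, 0.431. A count at starts with an IDR limit is not given here. After 3 days they stood there at 8 (28.2%), and after 6 days at 3 (11.7%). HMGB2 peaks stood there at 3 of the 10, against 15.2%. For genes without an entry in the promoter table, PRPF3 among them, either end of the span stood in for the start, and the counts of SON in untreated cells and at 3 days and of HMGB2 include PRPF3.

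**Figure D1:**
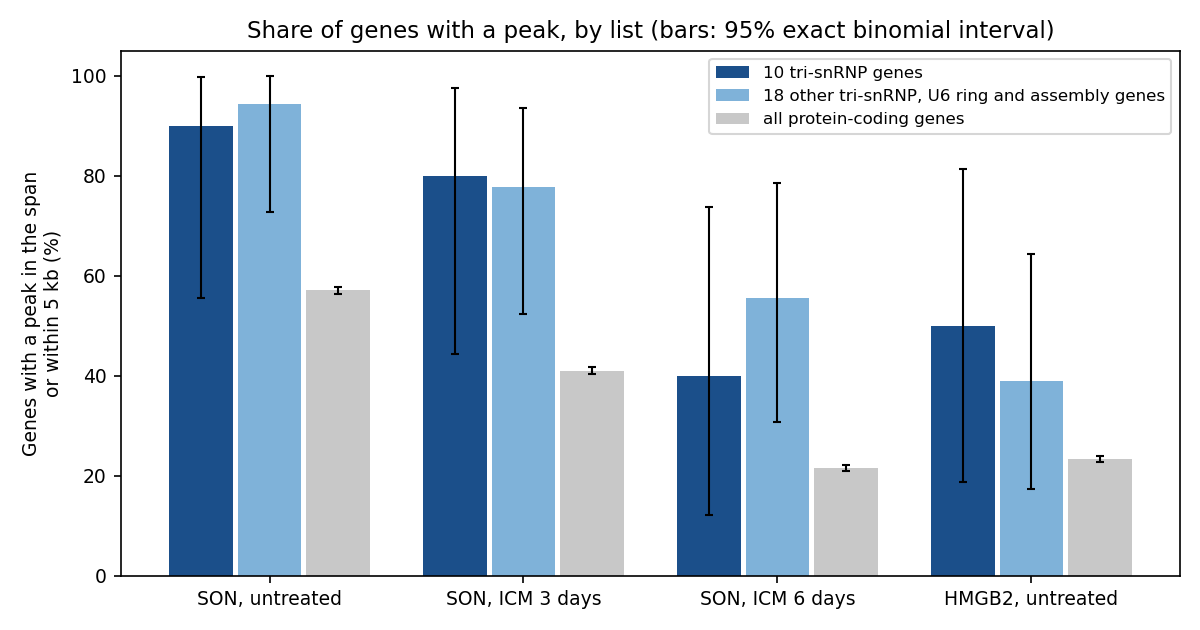
Share of genes with at least 1 peak in the span or within 5 kb (vertical axis, %, from 0) in each of the 4 lists, for the 10 tri-snRNP genes, 18 other genes of the particle, the U6 ring and its assembly, and all 19974 protein-coding genes. Bars are shares and lines are 95% exact binomial intervals. In each list the bar of the 10 genes is higher than that of all genes, and its interval reaches down to 55.5% in untreated cells and 12.2% at 6 days.

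The SON lists hold lines of low reproducibility, and the global irreproducible discovery rate (IDR) was read for each peak. It is the estimated share of irreproducible peaks among all peaks at least as consistent between the 2 replicates. When lines with a global IDR above 0.05 were set aside, SON peaks stood at 8 of the 10 genes in untreated cells, against 45% of all genes. At 3 days they stood at 6, against 24% of all genes. At 6 days no gene of the 10 had a peak at that level, against 5.02% of all genes, and the lowest IDR among their 4 peaks was 0.128. The 6-day peaks described below thus all have a global IDR above 0.05. Over the whole lists, 13348 of 22362 untreated lines, 4669 of 11158 at 3 days and 895 of 5583 at 6 days were at or below 0.05. Replicate values were identical in 55.9%, 29.0% and 9.49% of the lines. How the replicates were made is not stated, so the IDR counts are not compared between lists.

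Of the 9 genes with an untreated SON peak, 8 had one at 3 days and 4 at 6 days. Over all 11401 protein-coding genes with an untreated peak these shares were 70.2% and 37.2%. A SON peak in all 3 lists was present at 4 genes, DDX23, PRPF31, PRPF8 and SNRNP40, against 20.3% of all genes. DDX23 and PRPF8 carried a peak in all 4 lists, against 10.6% of all genes, and SNRNP200 carried none in any, against 40.3%. Counted as peaks, the 10 genes held 13 untreated SON peaks, of which 9 (69.2%) were overlapped at 3 days and 4 (30.8%) at 6 days. Over all untreated peaks 45.4% and 21.9% were overlapped. Overlap was higher for stronger peaks: at untreated ranks 1 to 500, on the autosomes and X, it was 100% at 3 days and 97.7% at 6 days. The shares at the 10 genes were not compared with those of peaks of like strength. All 9 peaks of the 3-day list and all 4 of the 6-day list at these genes lay on an untreated peak, as did 91.6% and 88.9% of all peaks of those lists, so these counts are near the background. The median percentile of the strongest untreated peak of a gene, ranked by −log10 p within the list, was 84.2 over the 9 genes and 71.9 over the 11401.

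**Figure D2:**
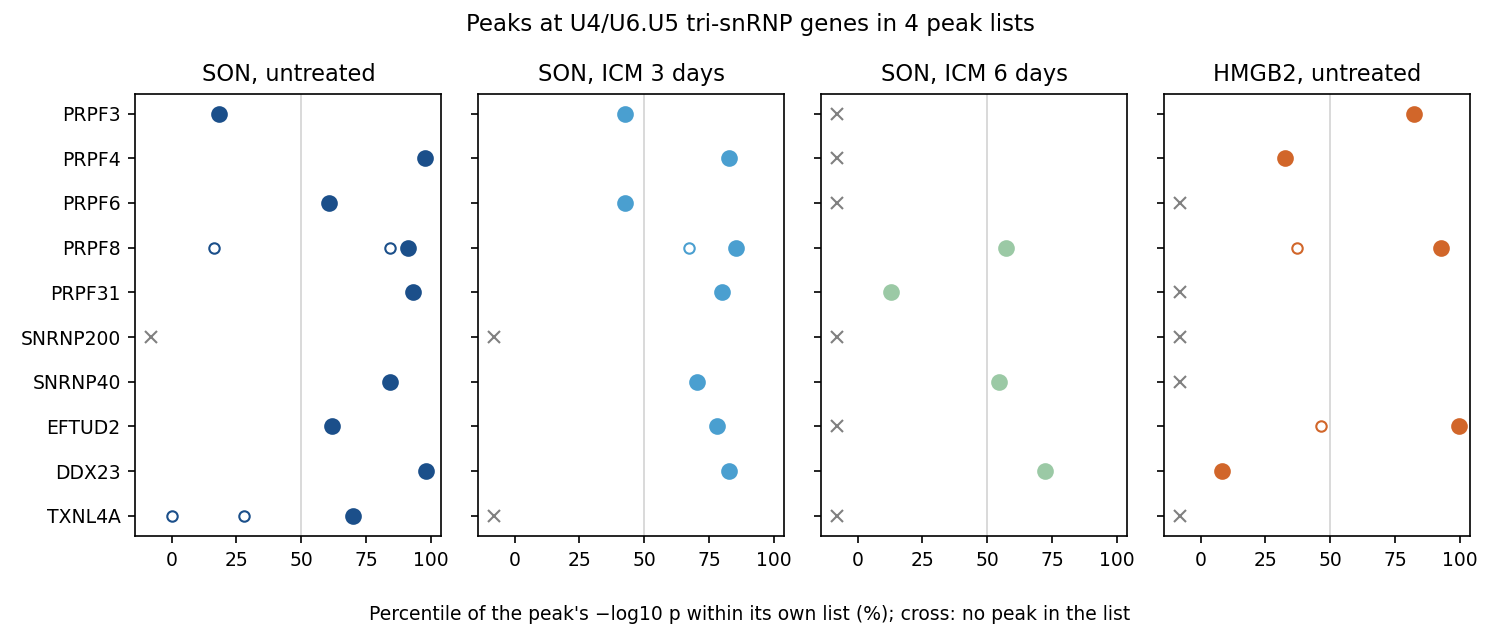
Percentile of each peak by −log10 p within its own list (horizontal axis, %) for the 10 genes (rows) in the 4 lists (panels). Filled points are the strongest peak of a gene, open points its other peaks and crosses genes without a peak. DDX23 and PRPF4 stand highest in untreated SON at 98.0 and 97.6, EFTUD2 highest in HMGB2 at 99.8, and SNRNP200 has a cross in every panel.

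PRPF3, PRPF4 and PRPF31 belong to the U4/U6 part of the particle. PRPF3 and PRPF4 bind each other and the U4/U6 duplex, and PRPF31 binds U4 RNA at its stem and helps tether U4/U6 to U5. All 3 carried a SON peak in untreated cells and at 3 days, and PRPF31 alone of the 3 carried one at 6 days. For these and the following genes, −log10 p values are listed for each list and are not compared between lists.

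PRPF4 (chromosome 9 from 113275658 to 113292905, plus strand) had a single untreated SON peak, from 113275117 to 113275804, with a −log10 p of 48.1, rank 543 of 22362. The 2 replicates gave 48.1 and 50.3, and the global IDR was 0.00109. At 3 days the peak had a −log10 p of 16.4, with 16.4 and 18.6 in the replicates and an IDR of 0.00752. No line lay at PRPF4 at 6 days, and the nearest 6-day peak was 51.3 kb from the gene, in SLC31A1. Of the untreated peaks at ranks 501 to 1000, 492 lay on the autosomes and X, and 86.4% of those were overlapped at 6 days. The gene was singled out after its values were seen. The HMGB2 peak at PRPF4, from 113275528 to 113275799, was of modest strength, with a fold enrichment of 3.46 over the caller's background, a −log10 p of 8.15 and rank 4052 of 6013. All 3 peaks also overlap CDC26, a subunit gene of the anaphase-promoting complex, whose span ends beside the PRPF4 start, and a peak there cannot be assigned to either gene.

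PRPF31 (chromosome 19 from 54115754 to 54131713, plus strand) carried 1 peak in each SON list and no HMGB2 peak. The untreated peak ran from 54115122 to 54115894, with a −log10 p of 30.4 (replicates 34.2 and 30.4, IDR 0.00484). At 3 days the value was 15.1 (replicates 15.1 and 17.2, IDR 0.00947). At 6 days it was 6.32 (replicates 10.4 and 6.32), and the IDR of 0.63 was the largest of that list. The percentiles within the 3 lists, which differ in length, were 93.2, 80.04 and 12.8. All 3 peaks also overlap TFPT, whose span ends just before the PRPF31 start.

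PRPF3 (chromosome 1 from 150321468 to 150353233, strand not given in the table used here) combined the lowest untreated SON value of the 9 genes, taking the strongest peak of each, with one of the stronger HMGB2 peaks of its list. Its untreated SON peak, from 150321238 to 150321707 over the lower end of the span, had a −log10 p of 6.72 in both replicates, rank 18287 of 22362, and the largest IDR of that list, 0.431. At 3 days the −log10 p was 8.43, but the replicates were far apart at 8.43 and 23.04, and the IDR was 0.134. There was no 6-day peak. The HMGB2 peak had a fold enrichment of 7.81, a −log10 p of 14.3 and rank 1069 of 6013, and its summit was 53 bp from the untreated SON summit. The percentile was 18.2 in the untreated SON list and 82.2 in the HMGB2 list.

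PRPF8, EFTUD2, SNRNP200 and SNRNP40 form the core of the U5 particle. PRPF8 is the scaffold of the catalytic centre, SNRNP200 (Brr2) is the helicase that unwinds U4 from U6, EFTUD2 (Snu114) is the GTPase bound to PRPF8, and SNRNP40 is a WD-repeat protein. Peaks at these genes ranged from a site met in all 4 lists to none at all.

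PRPF8 (chromosome 17 from 1650629 to 1684867, minus strand) held 3 untreated SON peaks. The strongest was not at the start but inside the gene, from 1669435 to 1670069, with its summit 15.2 kb downstream of the start. Exons were not used here, so its place among exons and introns is not given. Its −log10 p was 27.0 in untreated cells (replicates 28.1 and 27.0, IDR 0.00348), 11.4 at 3 days (replicates 11.6 and 11.4, IDR 0.0405) and 9.07 at 6 days (replicates 9.07 and 12.04, IDR 0.253). The HMGB2 list had a peak at the same place, from 1669456 to 1669975, with a fold enrichment of 5.45, a −log10 p of 18.9 and rank 440 of 6013. Its summit was 51 bp from the untreated SON summit, and this was the only site of the 10 genes overlapped in all 4 lists. DDX23, the other gene with a peak in every list, had its HMGB2 peak apart from its SON peaks.

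The start of PRPF8 carried a separate peak. It had a −log10 p of 20.2 in untreated cells, the same in both replicates, and 18.2 at 3 days (replicates 18.2 and 22.7), where it was the stronger of the pair. It was missing at 6 days, and no HMGB2 peak lay there. The percentile of the start peak was 84.2 in untreated cells and 85.5 at 3 days, while that of the internal peak was 91.1 and 67.2. The third untreated peak lay 0.812 kb beyond the lower end of the span, in RILP, with a −log10 p of 6.53 and an IDR of 0.431. It was missing in both later lists and was met by a second HMGB2 peak of PRPF8, with a fold enrichment of 5.08.

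EFTUD2 (chromosome 17 from 44849948 to 44899445, minus strand) carried the strongest HMGB2 peak of the 10 genes. That peak ran from 44899297 to 44899840 over the start, with a fold enrichment of 11.8, a −log10 p of 107 and rank 14 of 6013. The untreated SON peak at the same place was of middling strength, with a −log10 p of 12.01 in both replicates, rank 8558 of 22362 and an IDR of 0.0107. At 3 days it was 14.3 (replicates 14.3 and 15.1, IDR 0.0149), and the percentile was 61.7 in untreated cells and 78.1 at 3 days. No 6-day peak was listed, and the nearest lay 54.5 kb away in GJC1. SON and HMGB2 summits were 26 bp apart in untreated cells. A weaker HMGB2 peak, with a fold enrichment of 5.53, had its summit 443 bp downstream of the start and met no SON peak. The start peaks also overlap DNAAF19, a gene of ciliary dynein assembly.

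SNRNP40 (chromosome 1 from 31259568 to 31296788, minus strand) carried 1 SON peak over its start in each SON list and no HMGB2 peak. The −log10 p was 20.2 in untreated cells and 12.04 at 3 days, each the same in both replicates, with an IDR of 0.00478 and 0.0321. At 6 days it was 8.87 (replicates 12.1 and 8.87, IDR 0.265). The percentiles were 84.2, 70.3 and 54.7. The untreated and 3-day peaks extend into ZCCHC17, whose span begins just beyond the SNRNP40 start.

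SNRNP200 (chromosome 2 from 96274338 to 96305546, minus strand) had no peak in any of the 4 lists. In the untreated, 3-day and 6-day lists the nearest SON peak lay 7.77, 7.79 and 7.97 kb from the gene, over CIAO1 and TMEM127 each time, with a −log10 p of 43.6, 20.6 and 9.79. The nearest HMGB2 peak was 1152 kb away. SON peaks were thus listed close to the gene at every time, while HMGB2 peaks were not. Its promoter stretch, printed above, had a GC content of 70% and held 23 CG dinucleotides, both above the median of all promoters.

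PRPF6, DDX23 and TXNL4A are U5 proteins that act as the particle forms or activates. PRPF6 bridges the U5 and U4/U6 parts, DDX23 (Prp28) is the helicase that exchanges U1 for U6 at the 5′ splice site, and TXNL4A (Dim1) is a small protein of thioredoxin fold.

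DDX23 (chromosome 12 from 48829756 to 48852163, minus strand) had the strongest untreated SON peak of the 10 genes. It ran from 48852029 to 48852575, with a −log10 p of 53.4 in both replicates, rank 440 of 22362 and an IDR of 0.00097. At 3 days the peak had a −log10 p of 16.4 (replicates 16.4 and 21.9, IDR 0.00504). At 6 days it had 10.5 (replicates 10.5 and 11.2, IDR 0.128), at percentile 72.1 of that list. Summits of the 3 SON lists lay 165, 154 and 139 bp upstream of the start. Its HMGB2 peak was a separate site 1.29 kb upstream, with a fold enrichment of 4.06, a −log10 p of 5.97 and rank 5524 of 6013, and it overlapped no SON peak. The untreated and 3-day values of DDX23 and PRPF4 were close (53.4 and 48.1, then both 16.4), yet PRPF4 was missing from the 6-day list and DDX23 was not.

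PRPF6 (chromosome 20 from 63981132 to 64033100, plus strand) carried a narrow SON peak of 327 bp over its start in untreated cells and at 3 days. The −log10 p was 11.8 (replicates 11.8 and 15.3, IDR 0.0271) and then 8.40 (replicates 8.40 and 10.3, IDR 0.0574). It had no 6-day and no HMGB2 peak. The stretch printed above, with the CTCF form, lies under both SON peaks except for its first 4 bases in untreated cells. A neighbouring SON peak over UCKL1 and ZNF512B, 24.2 kb away, was present in all 3 lists, with a −log10 p of 118, 57.2 and 27.4.

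TXNL4A (chromosome 18 from 79970813 to 80033936, minus strand), at 63.1 kb the longest of the genes, carried 3 SON peaks in untreated cells and none in any other list. The strongest, from 80010257 to 80010627, lay 23.5 kb downstream of the outer start, with a −log10 p of 13.98 (replicates 13.98 and 14.07, IDR 0.00829). A second lay 6.01 kb downstream, with 7.49 (replicates 12.1 and 7.49, IDR 0.149). The third covered the outer start and extends into RBFA. It was the widest peak of the set at 1190 bp and one of the weakest of the whole list, with a −log10 p of 3.99 in both replicates and rank 22322 of 22362. RefSeq gives TXNL4A a further start at 79988563, and no list had a peak in the 250 bases before it. The nearest peak at 3 days was 74.8 kb from the gene, and the nearest HMGB2 peak 575 kb.

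Positions of the summits were similar from gene to gene. Apart from PRPF3, whose strand was not given, 8 genes had an untreated SON peak over the start, with the summit between 213 bp upstream and 57 bp downstream of it and a median of 102 bp upstream. At 3 days the 7 such summits all lay upstream, from 39 to 172 bp, and at 6 days the 3 lay 68 to 169 bp upstream. Where an HMGB2 peak overlapped an untreated SON peak, at PRPF3, PRPF4, PRPF8 (2 sites) and EFTUD2, the summits were 15 to 84 bp apart. These were 5 of the 7 HMGB2 peaks of the genes, against 62.3% of all HMGB2 peaks. Peak width had a median of 462 bp for untreated SON and 327 bp for HMGB2 at these genes, against 412 and 242 bp over the lists.

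**Figure D3:**
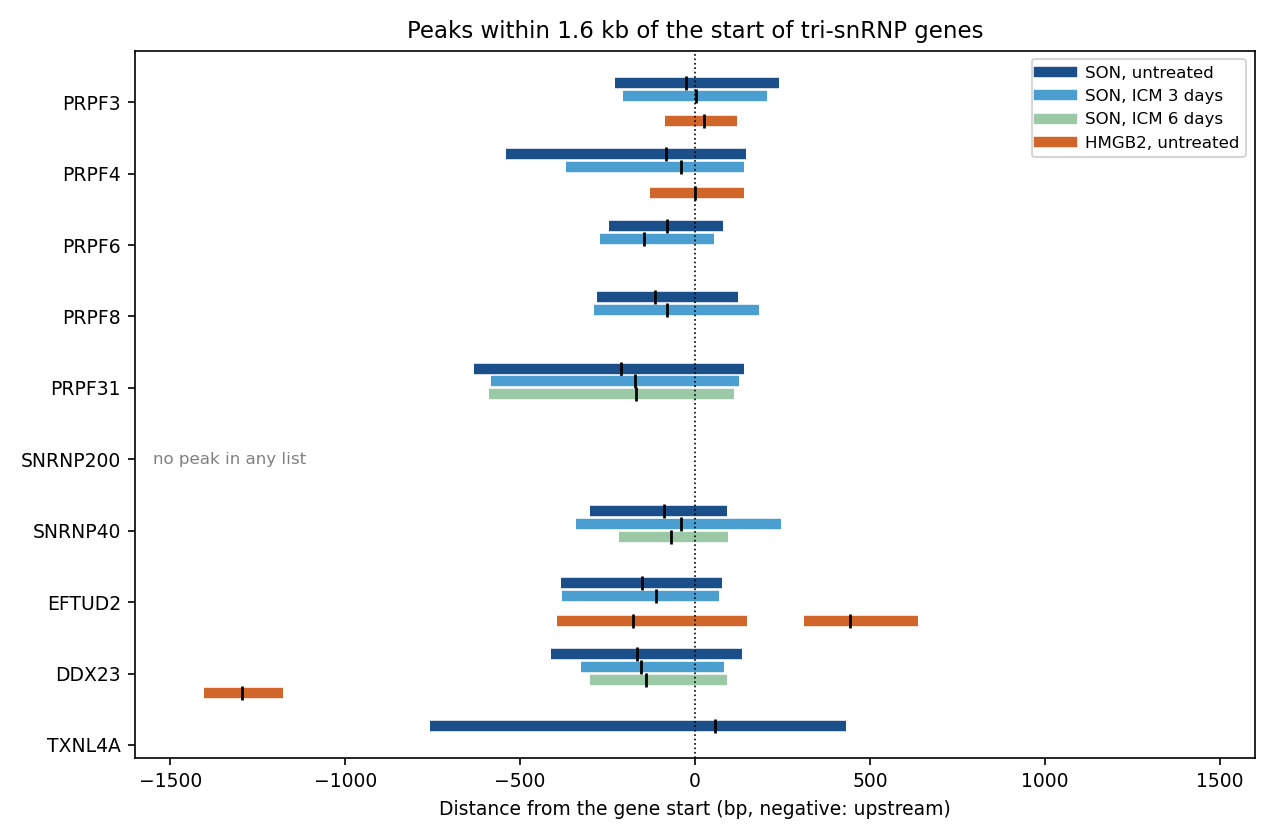
Extent of each peak (coloured bar) and its summit (black tick) relative to the outermost RefSeq start of the gene (horizontal axis, bp, upstream negative, 1.6 kb to each side). For PRPF3, whose strand was not given, 0 is the lower end of the span. The internal peaks of PRPF8 and TXNL4A and the RILP site lie outside the plot. SON bars of 9 genes cross 0, and the HMGB2 bar of DDX23 lies 1.29 kb upstream, apart from its SON bars.

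Replicate values within each SON list give the spread behind these ranks. Of the 13 untreated peaks, 6 had identical replicate values, against 55.9% of the whole list, and whether the replicates share reads is not stated. At 3 days 1 of 9 did (29.0% of the list), and at 6 days 0 of 4 (9.49%). Replicate 2 gave the higher value for 7 of the 9 peaks at 3 days, against 56.2% of the whole list. At 6 days the 4 peaks split 2 and 2. The spread between replicates at 6 days, 6.32 to 10.4 for PRPF31 and 8.87 to 12.1 for SNRNP40, came close to the range of the 4 genes themselves, 6.32 to 10.5, and no order among them is read from that list.

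**Figure D4:**
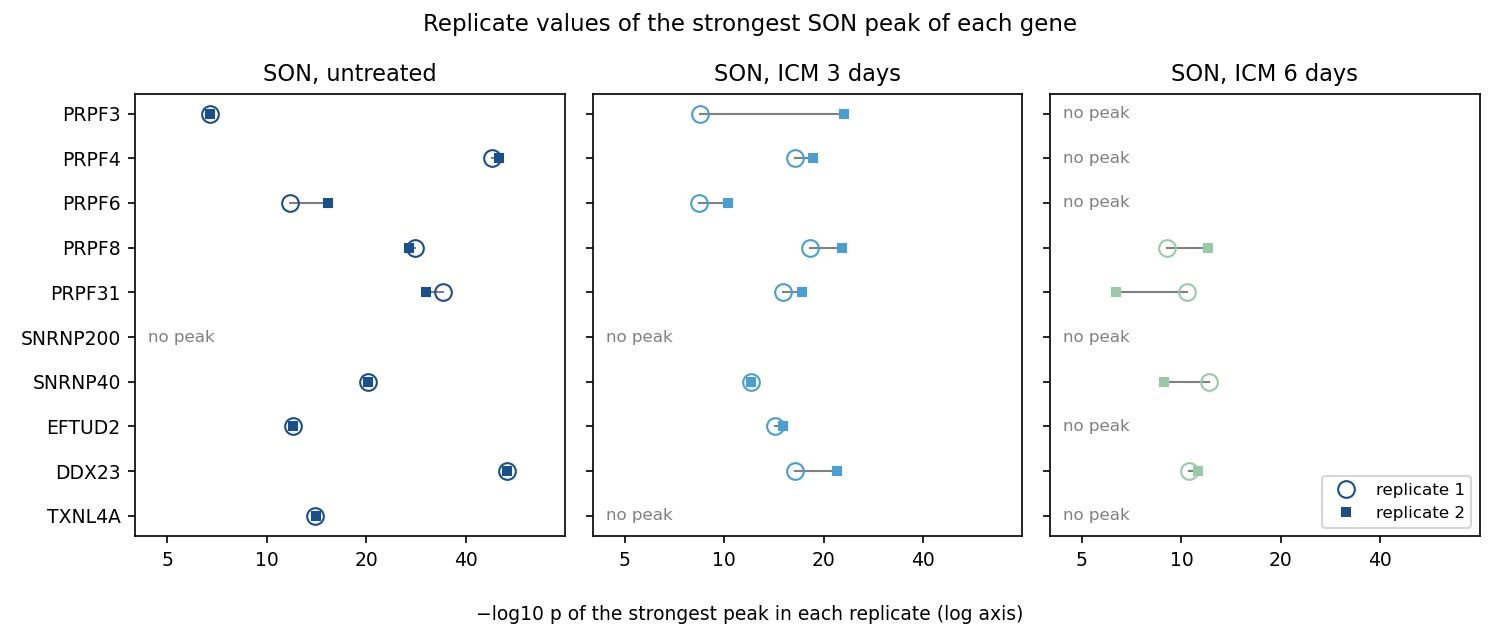
−log10 p of the strongest SON peak of each gene in replicate 1 (open circle) and replicate 2 (filled square), on a log axis, for the 3 SON lists (panels). Replicates coincide for several genes in untreated cells, and are farthest apart for PRPF3 at 3 days, at 8.43 and 23.04.

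Further proteins of the particle, the U6-specific LSM ring and its assembly factors were read from a list of 18 genes. SON peaks were found at 17 of them in the untreated list, against 57.1% of all protein-coding genes. In the 3-day list 14 had one (41% of all genes), and in the 6-day list 10 did (21.5%). HMGB2 peaks were found at 7, against 23.3% of all genes. The strongest untreated peaks belonged to USP39, an inactive ubiquitin protease of the tri-snRNP, with a −log10 p of 53.2, LSM3 of the U6 ring, with 42.5, and SART1 of the tri-snRNP, with 36.4. These 3 peaks had values of 36.7, 18.6 and 21.0 at 3 days and of 7.71, 10.6 and 11.6 at 6 days, and the LSM3 peak is shared with XPC. Peaks in all 4 lists were present at LSM2, LSM4, PPIH and USP39, against 10.6% of all genes. However, the strongest PPIH peak of each list lies in YBX1. The strongest HMGB2 peak at LSM2, with a fold enrichment of 9.84, lies in VARS1. That of USP39, with 6.09, lies in TMEM150A, and that of LSM4 lies in no protein-coding gene. None of these genes thus had its strongest HMGB2 peak over its own span. SNRNP27 was the single gene of the 18 without any peak, against 40.3% of all genes. In the untreated, 3-day and 6-day lists, 15, 11 and 0 of the 18 had a SON peak whose global IDR did not exceed 0.05. The shares of all genes were 45%, 24% and 5.02%.

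Among all other protein-coding genes that share no peak with a member, the percentile of the strongest peak in the 4 lists was compared with the median over the 10 genes, which was 77.0, 74.2, 0 and 4.07 in untreated SON, 3-day SON, 6-day SON and HMGB2, with 0 for a list without a peak. The 3 genes at the smallest Euclidean distance were UXT (distance 1.13), NCOA4 (3.74) and ZNF653 (4.07), over 4 lists. No member lay as close to this median as they did, the nearest being PRPF31 at 21.8 and the farthest PRPF8 at 107, so the median stands for no single member. Its HMGB2 value of 4.07 is the midpoint between 0, for a member without a peak, and 8.15 for DDX23. In HMGB2, UXT, NCOA4 and ZNF653 stood at 4.51, 2.16 and 5.70, below every member with a peak in that list.

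Of the peaks counted outside a gene span, the RILP site lay 0.812 kb (SON) and 0.919 kb (HMGB2) beyond PRPF8 and the HMGB2 peak 1.18 kb beyond DDX23, so none lay near the 5 kb limit of the window. Just beyond that limit were an untreated SON peak 5.02 kb from TXNL4A, over HSBP1L1, with a −log10 p of 6.77, and SON peaks over CNOT3 5.30, 5.24 and 5.28 kb from PRPF31, with −log10 p values of 38.0, 27.6 and 11.5 in the untreated, 3-day and 6-day lists.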

How the data were processed

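ChIPmentation peak lists of SON (untreated, 3 and 6 days of ICM) and HMGB2 (untreated) were used, 1 list per group, grouped by the treatment labels. The submitters' processing notes name bcl2fastq 2.17, Bowtie2, deepTools and MACS2, without roles, and the build hg38. The control used for calling and the read filters are not given in the sources used here. Per the layout of the deposited SON lists, the IDR tool was run on 2 replicates. The authors deposited a −log10 p per peak (the lower of the 2 replicate values, which are also given), the −log10 of the global IDR, and a scaled IDR score, which was not used. The deposited HMGB2 list gives a fold enrichment, −log10 p and −log10 q, and its peak names state a q cutoff of 0.03. How the replicates were made and whether HMGB2 replicates were pooled are not stated.

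Peaks were assigned to RefSeq spans (GRCh38.p14) plus 5 kb, ranked by −log10 p within each list, and counted as shared with 1 bp of overlap. Gene starts and strands came from the RefSeq promoter table. Of the 18 further genes, 17 matched by symbol and PRPF4B by synonym (PRP4K). The members and gene lists were chosen with earlier results of these data known. Named genes were the 10 members, the 3 of the 18 with the strongest untreated peak, those with peaks in all lists or in none, the 3 most alike in pattern, and genes overlapped by or nearest to a peak described. With 1 list per group no test was made. The counting functions were tested on simulated data. Alternatives covered window, threshold, overlap and replicate. Python 3.11.15, numpy 2.4.6, pandas 2.3.3 and scipy 1.17.1 were used.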

Additional observations from a re-analysis of the deposited data

How the results depend on the processing

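The number of genes with a peak was within 1.5 times its value for the untreated and 3-day SON lists in every alternative run: the gene span alone, 1 kb around a start, the stronger 50% of the list, a global IDR of at most 0.05, and a window of 10 kb. The 10 kb window was chosen after seeing the data, because of the peak near SNRNP200, and gave 10, 9, 5 and 6 genes in untreated SON, at 3 days, at 6 days and in HMGB2. When the global IDR was held to 0.05, 0 genes had a 6-day SON peak, against 5.02% of all genes. In that setting 0 untreated peaks at these genes were found at 6 days. HMGB2 peaks stood at 3 genes within 1 kb of a start (15.2% of all genes) and at 3 genes in the stronger 50% of the list. For the 10 kb window and the stronger 50% of a list the share of all genes is not given here. Those counts are thus not set against a background, and a wider window can only add genes. With a SON IDR of at most 0.05 and an HMGB2 q of at most 0.01, 3 HMGB2 peaks met an untreated SON peak in place of 5. Replicate 2 values gave a median percentile of 82.1 for the strongest untreated peak, in place of 84.2. Leaving out a replicate was not possible with 1 list per group. The unknown depth limits every missing peak.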
